A study of Mus musculus with 10 samples.

Results

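Transcript levels of the genes of oxidative phosphorylation were described in 10 mouse melanoma tumors, by respiratory complex and by the genome that encodes each gene. The genes were taken by their symbols: those beginning with Nduf, Uqcr, Cox followed by 4 to 8, or Atp5, the genes Sdha to Sdhd, and the subunit genes of mitochondrial DNA with the prefix mt-. Symbols with "-ps" (pseudogenes) and genes with a mean below 1 TPM (a length-corrected transcript abundance scaled to the library) were left out. Of 120 matching symbols, 10 carried "-ps" and 1, Ndufa11b, had a mean of 0.384 TPM, which left 109 genes of 29890 listed and of 15276 with a mean of at least 1 TPM. Just above the limit were Ndufs6b at 1.2, Cox6a2 at 1.41 and Cox6c2 at 2.06 TPM. The set held 55 genes named for complex I, 4 for complex II, 9 for complex III, 22 for complex IV and 19 for complex V. Mitochondrial DNA encodes 13 of them and nuclear DNA 96. The symbol patterns also brought in 8 assembly factors of complex I and 4 extra gene copies, and they miss the cytochrome c1 gene Cyc1. Ndufa4 and Ndufa4l2, named after complex I, were placed in complex IV, where the Ndufa4 protein is found.

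The tumors grew under the skin of female C57BL/6J mice (C57BL/6 in the sample labels) that were 7 to 8 weeks old when they received cells of B2905-M4, a mouse melanoma line. In 5 tumors the cells over-expressed Adamts7, a secreted protease of the extracellular matrix, and in 5 they carried a vector. No tumor had immunotherapy. Of the Adamts7 tumors 2 were taken at day 35 and the other 3 at day 45, while 3 vector tumors were taken at day 45 and the last 2 at day 50. The day of each single tumor is not given, so harvest day and group cannot be told apart. The labels number the tumors within each group but do not say whether each came from its own mouse, and the p-values measure the spread between these tumors only. Values are TPM, which corrects for transcript length and keeps no read depth, so the depth of each tumor is unknown.

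Oxidative phosphorylation is carried out in the inner mitochondrial membrane. Complexes I and II take electrons from NADH and succinate, complex III passes them to cytochrome c, and complex IV hands them to oxygen. Complexes I, III and IV pump protons, and complex V, the ATP synthase, uses the returning protons to make ATP. Complexes I, III, IV and V are built from subunits of both genomes, while complex II is wholly nuclear. Melanoma lines are known to differ in how much they rely on respiration, and the coactivator gene Ppargc1a is linked to that difference.

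The tumors were not alike in their makeup. Vector tumors 3 and 5 stood apart, with low sums of the 7 melanocyte markers. These were 312 and 1909 TPM, where the other 8 tumors lay between 8375 and 22967 TPM. The 7 T cell markers summed to 336 and 259 TPM in these 2 tumors and to between 16.1 and 49 TPM in the others. The tumor labelled Adamts7 5 held Adamts7 at 18.2 TPM, below vector tumors 3 and 5 (28.3 and 27.6 TPM), while Adamts7 tumors 1 to 4 lay between 74.8 and 96 TPM. Every group difference below takes its label as given. In a bulk tumor, fewer cells of a type and less RNA per cell cannot be told apart.

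The mitochondrial genome packs its genes closely, and some neighbours share bases on 1 strand, which bears on how reads are divided between them. The 2 pairs that share the most are shown, while mt-Atp6 and mt-Co3 share 1 base. In the older build GRCm38, mt-Atp8 lies at chrM:7766-7969 and mt-Atp6 at chrM:7927-8607, and they share 43 bases. The genes mt-Nd4l (chrM:9877-10173) and mt-Nd4 (chrM:10167-11544) share 7. The last 90 bases of the first gene of each pair and the first 90 of the second are given 5′ to 3′, with the shared bases in capitals.
mt-Atp8: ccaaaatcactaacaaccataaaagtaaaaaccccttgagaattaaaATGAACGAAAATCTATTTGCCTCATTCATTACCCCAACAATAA
mt-Atp6: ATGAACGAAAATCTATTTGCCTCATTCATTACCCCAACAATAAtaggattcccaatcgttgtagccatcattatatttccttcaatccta
mt-Nd4l: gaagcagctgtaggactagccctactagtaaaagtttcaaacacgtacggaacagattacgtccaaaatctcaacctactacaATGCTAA
mt-Nd4: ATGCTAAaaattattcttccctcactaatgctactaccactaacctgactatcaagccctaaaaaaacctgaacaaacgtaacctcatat

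For the nuclear genes, promoters are given for 2 subunits whose groups did not overlap on the higher side, Uqcr11 and Cox6a1, and for 2 among the lowest log2 fold changes, Ndufs4 and Atp5md. They were chosen because they hold matches to the cores below. The promoters of Cox7a1, Ndufa10, Ndufa12 and Cox7b, which meet the same descriptions, hold none. The sequences come from RefSeq (build GRCm38.p6), which had 82 promoters for 77 of the 96 nuclear genes, each from 250 bases before the start site to 50 after it. The windows are chr10:80406772-80407071 for Uqcr11, chr5:115348909-115349208 for Cox6a1, chr13:114388045-114388344 for Ndufs4 and chr19:47090598-47090897 for Atp5md, all on the minus strand. Capitals mark matches, on either strand, to short cores of factors known for control of respiratory genes: GCGCATGC for NRF1, CCGGAAG for the ETS family with GABPA, and AAGATGGC for YY1.
Uqcr11: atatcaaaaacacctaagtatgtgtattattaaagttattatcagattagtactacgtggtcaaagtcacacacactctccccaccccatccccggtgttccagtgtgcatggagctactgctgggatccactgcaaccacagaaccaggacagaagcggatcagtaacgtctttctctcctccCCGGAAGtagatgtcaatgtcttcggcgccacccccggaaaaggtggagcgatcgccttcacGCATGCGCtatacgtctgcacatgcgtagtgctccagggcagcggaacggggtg
Cox6a1: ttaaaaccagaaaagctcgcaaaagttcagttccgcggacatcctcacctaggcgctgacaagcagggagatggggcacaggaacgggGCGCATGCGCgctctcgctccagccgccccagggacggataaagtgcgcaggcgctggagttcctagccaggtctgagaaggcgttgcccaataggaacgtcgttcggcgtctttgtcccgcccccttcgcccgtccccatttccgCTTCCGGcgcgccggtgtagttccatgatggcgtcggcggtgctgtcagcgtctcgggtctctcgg
Ndufs4: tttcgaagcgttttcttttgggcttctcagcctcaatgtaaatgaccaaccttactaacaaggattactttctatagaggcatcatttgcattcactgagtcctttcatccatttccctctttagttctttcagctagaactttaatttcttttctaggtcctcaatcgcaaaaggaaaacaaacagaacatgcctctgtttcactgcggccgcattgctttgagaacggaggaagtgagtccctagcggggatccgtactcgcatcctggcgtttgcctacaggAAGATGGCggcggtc
Atp5md: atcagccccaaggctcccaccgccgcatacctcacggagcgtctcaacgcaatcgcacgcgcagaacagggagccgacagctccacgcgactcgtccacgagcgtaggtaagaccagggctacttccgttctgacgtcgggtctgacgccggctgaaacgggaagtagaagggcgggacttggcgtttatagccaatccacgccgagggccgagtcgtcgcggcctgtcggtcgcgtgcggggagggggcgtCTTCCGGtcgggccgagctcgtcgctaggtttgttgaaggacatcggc

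In Uqcr11 the ETS core begins 66 bases and the NRF1 core 4 bases before the start site. The Cox6a1 promoter holds the NRF1 core on both strands, in 2 overlapping matches, and an ETS core that begins 16 bases before the start. Over all 82 promoters, the NRF1 core was present in 14.6%, against 2.71% of all 32851 promoters of the same length. The ETS core was present in 23.2% against 8.86% and the YY1 core in 13.4% against 2.75%. The hypoxia response core ACGTG was present in 24.4% against 19.6%. The promoters of these genes also had a higher GC content, 58.5% against 52.7% of bases, so base composition differs along with the motifs. Split by the sign of the log2 fold change between the groups, the NRF1 core was in 17.5% of 40 promoters with a positive value and 11.9% of 42 with a negative one. The ETS core was in 25% and 21.4%, the YY1 core in 10% and 16.7%, and the hypoxia core in 30% and 19% of the positive and negative ones. A match of letters is a description of the window and shows no binding.

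Together the 109 genes held 7.5% to 11% of all TPM in each tumor. The 13 mitochondrial genes made up most of it. Their share was 6.36%, 6.83%, 6.51%, 7.54% and 7.73% in Adamts7 tumors 1 to 5 and 5.01%, 6.31%, 5.12%, 5.78% and 6.32% in vector tumors 1 to 5. The groups did not overlap, but the lowest Adamts7 tumor was only just above the highest vector tumors. The group means were 6.99 ± 0.613% and 5.71 ± 0.628% (SD, n = 5 each). The 96 nuclear genes took 2.82 ± 0.252% and 2.64 ± 0.134% (SD, n = 5 each), and there the groups overlapped. The 8 genes of the RNA quality and stress list, mostly the nuclear long RNA Malat1 by TPM, summed to 1021 to 1707 TPM in Adamts7 tumors and 1626 to 3148 TPM in vector tumors. Of the 8, 6 had positive log2 fold changes (median 0.22) while Malat1 stood at -0.88 (SE 0.23, limma adjusted p = 0.113). Their part in the mitochondrial share was not tested. Adamts7 tumor 5 had the highest share from both genomes, with 3.25% from the nuclear genes. The ratio of mitochondrial to nuclear TPM was 2.48 ± 0.18 in Adamts7 tumors and 2.16 ± 0.231 in vector tumors (SD, n = 5 each), with overlap, since vector tumor 5 was at 2.47.

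**Figure D1:**
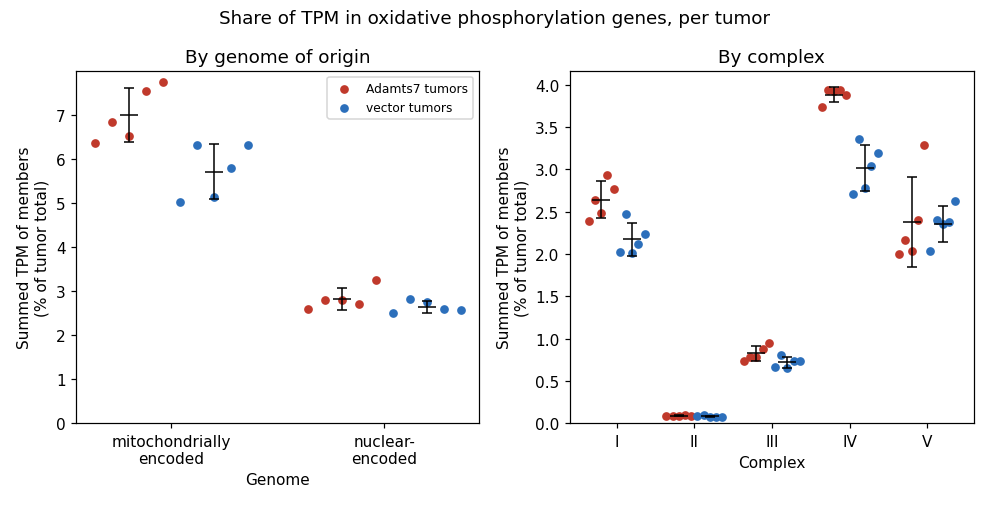
Summed TPM of the genes of oxidative phosphorylation as a percentage of each tumor's total, by genome of origin (left) and by complex (right). Points are tumors 1 to 5 from left to right in each group, and bars are mean ± SD. The complex IV share of the Adamts7 tumors, 3.74% to 3.94%, lies above that of every vector tumor, 2.71% to 3.36%. In complex V the groups overlap and Adamts7 tumor 5 stands highest at 3.29%, of which mt-Atp6 and mt-Atp8 make up 2.15%.

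Among the complexes, the summed TPM of complex IV separated the groups most widely. It was 37235, 39187, 39111, 39251 and 38594 TPM in Adamts7 tumors and 26940, 33441, 27734, 30279 and 31972 TPM in vector tumors, a ratio of means of 1.29. The sum of its 3 mitochondrial genes held most of that gap, with 29348 to 32686 TPM against 20623 to 26493 TPM. Of these genes, mt-Co1 and mt-Co2 did not overlap between the groups and mt-Co3 did. The nuclear genes of complex IV summed to 7141 ± 1202 and 6525 ± 525 TPM (SD, n = 5 each) and overlapped. The ratio of means was 1.22 for complex I, 1.15 for complex III, 1.1 for complex II and 1.01 for complex V, and in each of these the groups overlapped. In complex V, mt-Atp6 and mt-Atp8 held 21393 of the 32809 TPM of Adamts7 tumor 5. The 17 nuclear genes of complex V summed to 10586 ± 550 and 9606 ± 570 TPM (SD, n = 5 each), a ratio of means of 1.1, with overlap. No test is given for these sums, because the genes were chosen as a set with earlier results of these tumors known.

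Gene by gene, no member passed the threshold over all 15276 tested genes with all 10 tumors (limma on log2(TPM + 1), Benjamini-Hochberg adjusted p under 0.05). Over all tested genes, 0.0262% were called higher and 0.196% lower, so few calls were made anywhere. At an unadjusted limma p under 0.05, 16 of the 109 genes, 14.7%, were higher in Adamts7 tumors and 11, 10.1%, lower, beside 4.86% and 15.3% of all tested genes. The groups did not overlap in 9 genes, 8.26%, all higher in Adamts7 tumors, beside 1.11% of all tested genes on the higher side. On the lower side the count was 0, beside 3.78% of all tested genes. The 9 genes were Uqcr11, Cox7a1, Cox6a1, Ndufa10, Ndufa12, mt-Co1, mt-Co2, mt-Nd1 and mt-Nd5.

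The authors' deposited table gave more calls. Of 105 members with an adjusted p in the authors' deposited table, 14, or 13.3%, were higher at an adjusted p under 0.05, beside 2.48% of its genes, and 0 were lower, beside 5.48%. Besides the 9 genes without overlap, these were Atp5b, Atp5d, mt-Nd2, mt-Nd4 and Ndufs7. The authors' deposited table uses another scaling and test, and its log2 fold change for Uqcr11 is 0.83 where the limma value is 0.71.

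Taken at once, the members pointed both ways. The median log2 fold change was 0.01, with 58 genes above 0 and 51 below. Over all tested genes the median was -0.10, with 6073 above 0 and 9203 below. The 13 mitochondrial genes had a median of 0.27 (10 above 0) and the 96 nuclear genes of 0.00 (48 above 0 and 48 below). Median-of-ratios scaling moved the median of all genes by 0.11 and quantile normalization by 0.14. Relative to the median of all genes, the mitochondrial genes stood at 0.37 and the nuclear genes at 0.10. Over the other scalings and the fits without particular tumors, these relative values ran from 0.17 to 0.54 and from -0.01 to 0.11. The members varied less than tested genes at large: the median SD of log2(TPM + 1) over the 10 tumors was 0.30, against 0.37 for all tested genes. The 2 sets were not matched for abundance. Tested genes reach down to a mean of 1 TPM, while the means of the nuclear members had a median of 188 TPM. The steadiest was Ndufb11 (SD 0.08) and the most variable Cox8b (SD 2.34); Ndufb11 was singled out after its values were seen.

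**Figure D2:**
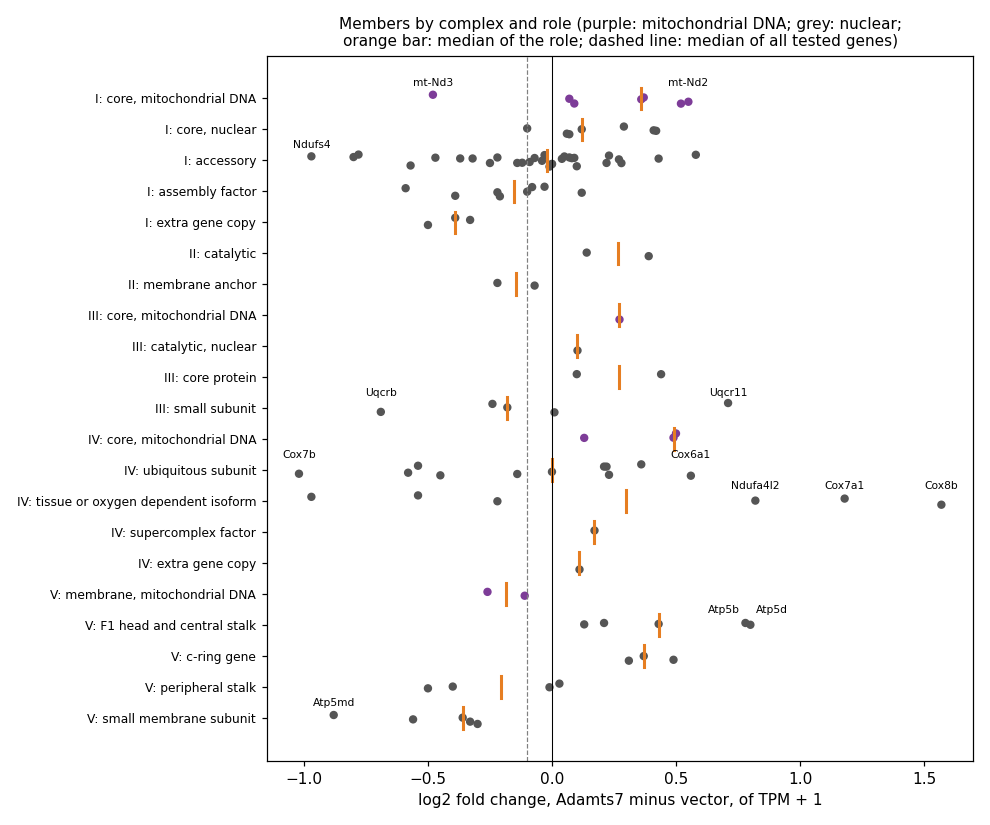
Log2 fold change of TPM + 1, Adamts7 minus vector, of each of the 109 genes (points), grouped by complex and role (rows). Orange bars are medians of a role, the dashed line is the median of all tested genes at -0.10, and vertical jitter is only for legibility. The F1 and c-ring genes of complex V lie to the right of 0 and its small membrane subunits to the left, with medians of 0.43, 0.37 and -0.36.

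In complex I, 6 of the 7 mitochondrial core genes had log2 fold changes above 0 (median 0.36), though mt-Nd4l was at -0.05 with tumor weights and mt-Nd6 at -0.02 without vector tumor 1. mt-Nd1, a proton-pumping core subunit at the quinone site, was at 7931, 8029, 8055, 9756 and 8171 TPM in Adamts7 tumors and at 5770, 7622, 4788, 5683 and 5605 TPM in vector tumors. The groups did not overlap, though Adamts7 tumor 1 was close to vector tumor 2. Its log2 fold change was 0.52 (SE 0.15, limma adjusted p = 0.133). mt-Nd2, another pumping subunit, was at 2627, 3253, 2608, 3488 and 3154 TPM against 1630, 2215, 2056, 1869 and 2612 TPM, with a log2 fold change of 0.55 (SE 0.16, limma adjusted p = 0.126). There Adamts7 tumor 3 lay just below vector tumor 5, which was the only overlap. mt-Nd4 and mt-Nd5, also pumping subunits, stood at 0.37 (SE 0.13) and 0.36 (SE 0.13) on the log2 scale. Adamts7 tumors ranged from 1449 to 1915 TPM for mt-Nd5 and vector tumors from 1034 to 1421 TPM. mt-Nd3 went the other way at -0.48 (SE 0.53, limma adjusted p = 0.603), and its values were scattered: 139, 139, 252, 308 and 388 TPM against 81.4, 461, 288, 420 and 685 TPM. Without vector tumors 3 and 5 its value was -0.16.

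Transcripts of mt-Nd4l and mt-Nd6 were close to 0 in their log2 fold changes, at 0.09 (SE 0.19) and 0.07 (SE 0.15). mt-Nd4l was measured at 0.493 times the TPM of mt-Nd4, with which it shares the 7 bases printed above. mt-Nd6 is on the minus strand, and its end overlaps that of mt-Nd5 on the plus strand. The labels do not state whether the libraries keep strand, so reads of that overlap may not be told apart.

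The nuclear genes of complex I did not move as a block. Of the 7 nuclear core genes, 6 were positive (median 0.12). Of the 30 accessory subunits, 14 were positive, with a median of -0.02 that turned positive under median-of-ratios, quantile, GC-bin and length-bin scaling. Ndufa10 and Ndufa12, accessory subunits, were the 2 without overlap. Ndufa10 was at 105, 115, 115, 112 and 103 TPM in Adamts7 tumors and at 78.2, 95, 74.3, 68.8 and 55.7 TPM in vector tumors. Every Adamts7 tumor was above every vector tumor, and the log2 fold change was 0.58 (SE 0.13, limma adjusted p = 0.0932). Ndufa12 stood at 495 ± 42.2 against 370 ± 48.6 TPM (SD, n = 5 each), a log2 fold change of 0.43 (SE 0.12, limma adjusted p = 0.126).

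Ndufs4, an accessory subunit of the electron-input arm whose loss causes a mitochondrial disease, had the lowest value of complex I. It was at 18.1, 20.9, 19.3, 16.7 and 47.7 TPM in Adamts7 tumors and at 33.6, 35.6, 55.4, 49.8 and 56.5 TPM in vector tumors. Adamts7 tumors 1 to 4 were below all vector tumors and Adamts7 tumor 5 was within their range. The log2 fold change was -0.97 (SE 0.28, limma adjusted p = 0.131). Ndufb1, a small membrane-arm subunit, showed the same arrangement, with 25.7 to 35.8 TPM in Adamts7 tumors 1 to 4, 54.7 TPM in tumor 5 and 44.2 to 87.4 TPM in vector tumors. The 8 Ndufaf assembly factors were low, between 9.46 and 29.5 TPM on average. Of the 8, 7 had negative log2 fold changes (median -0.16, which turned positive under GC-bin scaling). That median stood at -0.06 relative to all tested genes. Under median-of-ratios, quantile, GC-bin and length-bin scaling 4 of the 8 were positive. The extra copies Ndufb4b, Ndufb4c and Ndufs6b were all negative (1 was positive without vector tumors 3 and 5), but reads of near-identical copies are divided by estimate, and these values are uncertain. Ndufs6b was at 0 in 5 of the 10 tumors.

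Complex II joins the respiratory chain to the citric acid cycle. Its catalytic subunit genes Sdha and Sdhb stood at log2 fold changes of 0.39 (SE 0.20, limma adjusted p = 0.292) and 0.14 (SE 0.11). The membrane anchors Sdhc and Sdhd had values of -0.07 (SE 0.15) and -0.22 (SE 0.10, limma adjusted p = 0.252), and that of Sdhc was 0.05 with median-of-ratios scaling, 0.03 with length-bin centring and 0.03 without vector tumors 3 and 5. Sdha was at 438, 435, 346, 478 and 335 TPM in Adamts7 tumors and at 428, 345, 250, 352 and 211 TPM in vector tumors. The ranges overlapped, and vector tumors 3 and 5, which were low in melanocyte markers, were the lowest for Sdha and for Sdhb. Without them the log2 fold changes of Sdha and Sdhb were 0.11 (SE 0.15) and 0.02 (SE 0.10). Whether tumor makeup takes part in that was not tested.

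Complex III held the member nearest to the threshold. Uqcr11, a small subunit that is thought to help bind the Rieske protein, was at 768, 809, 834, 749 and 636 TPM in Adamts7 tumors. In vector tumors it was at 473, 503, 460, 510 and 377 TPM. All 5 Adamts7 tumors were above all 5 vector tumors, and the means were 759 ± 76.4 and 465 ± 53 TPM (SD, n = 5 each). The log2 fold change was 0.71 (SE 0.12), with a limma adjusted p of 0.0507. It passed under 10 of the 24 other settings, over which the limma adjusted p of Uqcr11 ran from 0.00671 to 0.162. In the authors' deposited table the adjusted p of Uqcr11 is 5.13e-07.

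Another small subunit of the same complex, Uqcrb, which binds near the quinone site, had the opposite sign. It was at 245, 215, 249, 197 and 530 TPM against 323, 401, 537, 399 and 543 TPM, a log2 fold change of -0.69 (SE 0.26, limma adjusted p = 0.196). Again Adamts7 tumors 1 to 4 were below every vector tumor and Adamts7 tumor 5 was not. The hinge protein gene Uqcrh had -0.24 (SE 0.21), with -0.42 without Adamts7 tumor 5 and -0.03 without vector tumors 3 and 5. The core protein genes Uqcrc1 and Uqcrc2 had 0.44 (SE 0.23; 0.15 without vector tumors 3 and 5) and 0.10 (SE 0.10), with Uqcrc1 at 223 to 233 TPM in Adamts7 tumors 1 to 4, 135 TPM in tumor 5 and 107 to 220 TPM in vector tumors. The cytochrome b gene mt-Cytb, the mitochondrial subunit of the complex, had 0.27 (SE 0.15, limma adjusted p = 0.322).

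In complex IV the 3 catalytic core genes come from mitochondrial DNA. mt-Co1 encodes the subunit that reduces oxygen and was the most abundant member, with a mean of 14347 TPM over all tumors. It was at 16482, 17535, 17860, 18233 and 13988 TPM in Adamts7 tumors and at 11782, 13597, 10208, 12092 and 11694 TPM in vector tumors. Adamts7 tumor 5 was only just above vector tumor 2, and the log2 fold change was 0.50 (SE 0.15, limma adjusted p = 0.135). mt-Co2, which accepts electrons from cytochrome c, was at 9854, 9581, 8832, 9560 and 8931 TPM against 5425, 7669, 6260, 6683 and 7557 TPM. The gap between its groups was wider than the whole range within the Adamts7 group, and the log2 fold change was 0.49 (SE 0.14, limma adjusted p = 0.129). mt-Co3 had 0.13 (SE 0.16; -0.03 with quantile normalization) and overlapped.

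The ubiquitous nuclear subunits of complex IV pointed in both directions, 6 of 11 positive. Cox6a1, the widely expressed form of subunit VIa, was at 1751, 2048, 1905, 1939 and 1950 TPM against 1421, 1641, 1136, 1383 and 1020 TPM. The groups did not overlap, and the log2 fold change was 0.56 (SE 0.14, limma adjusted p = 0.108) and 0.37 without vector tumors 3 and 5. Cox7b, a small membrane subunit, was at 37, 23.9, 36.1, 20.9 and 101 TPM against 48.8, 61.4, 128, 61.7 and 105 TPM. This was the lowest log2 fold change of the set, -1.02 (SE 0.41, limma adjusted p = 0.213), and Adamts7 tumors 1 to 4 were below all vector tumors. Without vector tumors 3 and 5 the value of Cox7b was -0.61 (SE 0.44). Ndufa4 had the same arrangement at 339, 330, 402, 341 and 857 TPM against 526, 619, 663, 695 and 646 TPM, with tumor 5 above all others. Its log2 fold change was -0.58 (SE 0.25, limma adjusted p = 0.23). Cox4i1, Cox6b1, Cox7a2, Cox8a and the supercomplex factor Cox7a2l had values between -0.14 and 0.36, none past the threshold.

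**Figure D3:**
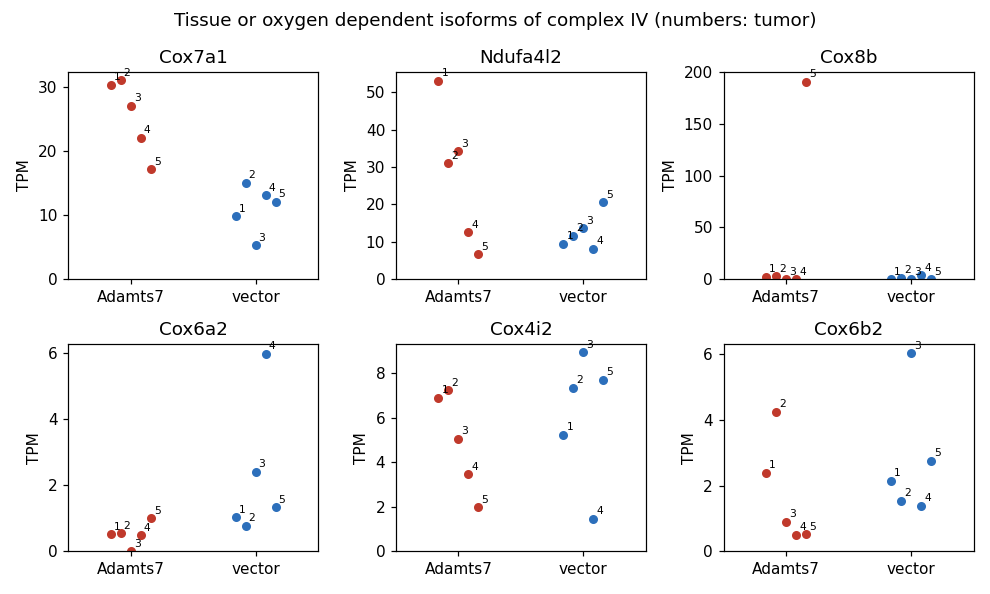
TPM of the 6 tissue or oxygen dependent isoform genes of complex IV in each tumor (numbers 1 to 5), with a linear axis from 0 in each panel. Cox7a1 is at 17.2 to 31.1 TPM in Adamts7 tumors and 5.27 to 15.1 TPM in vector tumors, and Cox8b is at 3.73 TPM or less in all tumors but Adamts7 tumor 5, at 191 TPM.

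Some complex IV subunits have another gene whose product replaces the common form in particular tissues or at low oxygen. Counts of these genes were low. In the authors' deposited table the mean normalized count is 127 for Ndufa4l2, 24.9 for Cox4i2, 19.7 for Cox7a1 and 17.1 for Cox8b. It is 5.52 for Cox6a2 and 4.39 for Cox6b2. Cox7a1, the form of heart and skeletal muscle, was at 30.4, 31.1, 27.1, 22.1 and 17.2 TPM in Adamts7 tumors and at 9.84, 15.1, 5.27, 13.1 and 12.1 TPM in vector tumors. The groups did not overlap, and the log2 fold change of 1.18 (SE 0.26, limma adjusted p = 0.0865) was the highest of the 9 such genes. Next to its common counterpart Cox7a2 it was a minor form, at 0.0993 ± 0.0387 of the Cox7a2 TPM in Adamts7 tumors and 0.0367 ± 0.0116 in vector tumors (SD, n = 5 each). The 10 skeletal muscle markers summed to between 5.42 and 11.2 TPM in Adamts7 tumors. In vector tumors they summed to 12.1, 6.5, 13.7, 599 and 10.6 TPM. Their part in the Cox7a1 difference was not tested.

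Ndufa4l2, the form induced by hypoxia that takes the place of Ndufa4, was at 53.2, 31, 34.3, 12.5 and 6.67 TPM against 9.41, 11.6, 13.6, 8.11 and 20.6 TPM. Adamts7 tumors 1 to 3 were above all vector tumors and tumor 5 below them all, and the log2 fold change of 0.82 (SE 0.49) did not pass (limma adjusted p = 0.351). Cox4i2, another form known to respond to low oxygen, had -0.22 (SE 0.41) and stayed between 1.47 and 8.92 TPM in all tumors. Its sign turned in other fits: the value was 0.01 without Adamts7 tumor 5, 0.14 without vector tumors 3 and 5, 0.25 with tumor weights and 0.03 with quantile normalization. Cox8b, a form of muscle and brown fat, was at 2.49, 2.75, 0, 0 and 191 TPM against 0, 1.34, 0, 3.73 and 0 TPM, so its log2 fold change of 1.57 (SE 1.28) rests on Adamts7 tumor 5. In that tumor the skeletal muscle markers summed to 7.31 TPM. The brown fat markers Ucp1 and Cidea were at 0 there and Dio2 at 0.35 TPM. The 5 adipocyte markers summed to 15.1 TPM in it, against 0.68, 3.13, 1.25 and 0.4 TPM in Adamts7 tumors 1 to 4. In vector tumor 1, where Cox8b was at 0, the adipocyte markers summed to 41.2 TPM. Their part in the Cox8b value was not tested. Cox6a2, the muscle form of subunit VIa, was highest in vector tumor 4 at 5.97 TPM, the tumor with the muscle marker sum of 599 TPM. In the other tumors it was at 2.41 TPM or less. The testis form Cox6b2 was at 0.51 to 6.02 TPM with no separation of the groups.

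Complex V was split between parts of 1 enzyme. The 5 genes of the F1 head and central stalk, the catalytic part in the matrix, were all above 0 in log2 fold change (median 0.43). The 3 genes for the c-ring, the proton-driven rotor, were also all positive, with a median of 0.37. The 5 small membrane subunits were all negative, with a median of -0.36. Of the 4 peripheral stalk genes 3 were negative, with a median of -0.21, but Atp5h at -0.01 (SE 0.12) and Atp5o at 0.03 (SE 0.14) were close to 0. The signs of these 4 medians were the same under the 5 other scalings tried, without Adamts7 tumor 5 and without vector tumors 3 and 5. The count of positive peripheral stalk genes changed: it was 2 of 4 under each of the 5 other scalings and 0 without Adamts7 tumor 5. Without vector tumors 3 and 5 the medians were 0.20 for F1, 0.10 for the c-ring, -0.16 for the small membrane subunits and -0.23 for the peripheral stalk. Relative to the median of all tested genes, these 4 parts stood, in that order, at 0.53, 0.47, -0.26 and -0.11 with all tumors. Without vector tumors 3 and 5 they stood at 0.30, 0.20, -0.06 and -0.13. These counts describe the genes and carry no test.

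Atp5b, the catalytic beta subunit, was at 2632, 2417, 2439, 2527 and 1622 TPM in Adamts7 tumors and at 1687, 1916, 999, 1353 and 976 TPM in vector tumors. Adamts7 tumors 1 to 4 were above every vector tumor and tumor 5 lay among them, with a log2 fold change of 0.78 (SE 0.22, limma adjusted p = 0.126). Atp5d, the delta subunit of the central stalk, was at 542, 588, 583, 598 and 350 TPM against 348, 380, 267, 301 and 225 TPM. Its log2 fold change was 0.80 (SE 0.19, limma adjusted p = 0.0944), with the same tumor 5 inside the vector range. The c-ring genes Atp5g1, Atp5g2 and Atp5g3 encode the same mature protein, and their values were 0.49 (SE 0.17), 0.37 (SE 0.17) and 0.31 (SE 0.20). In all 3, vector tumors 3 and 5 were the lowest of the 10 tumors, and without them the values were 0.28 (SE 0.15), 0.10 (SE 0.09) and 0.03 (SE 0.15). Atp5b and Atp5d were then at 0.49 (SE 0.19) and 0.61 (SE 0.19).

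On the lower side, Atp5md, a small subunit needed for a stable enzyme, was at 374, 370, 501, 382 and 1067 TPM against 691, 722, 1089, 898 and 1231 TPM. Adamts7 tumors 1 to 4 were below all vector tumors, and the log2 fold change was -0.88 (SE 0.30, limma adjusted p = 0.166). Atp5pb, the b subunit of the peripheral stalk, was at 125, 119, 118, 108 and 247 TPM against 184, 163, 202, 216 and 206 TPM, with a log2 fold change of -0.50 (SE 0.21, limma adjusted p = 0.225). Adamts7 tumor 5 was above all the other 9 tumors.

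The mitochondrial subunits of the same membrane part, mt-Atp6 and mt-Atp8, stood at log2 fold changes of -0.26 (SE 0.21) and -0.11 (SE 0.25), and both were positive with GC-bin centring, at 0.01 and 0.15. mt-Atp6 was at 0.02 without vector tumors 3 and 5 and mt-Atp8 at 0.01 with median-of-ratios scaling. mt-Atp8 was measured at 5.7 times the TPM of mt-Atp6 on average, and between 3.94 and 7.76 times in single tumors, although the genes share 43 bases and are made as parts of 1 longer RNA. mt-Atp8 is 204 bases long, and reads were 150 bases at each end of a fragment. In the authors' deposited table the mean normalized count is 502 for mt-Atp8 and 8105 for mt-Atp6, the reverse of their order in TPM. The TPM of mt-Atp8 therefore rests on the length correction of a short gene, and how RSEM made it was not tested. Without these 2 genes the mitochondrial sum was 53299 to 61660 TPM in Adamts7 tumors and 36913 to 49467 TPM in vector tumors, a ratio of means of 1.32 where it was 1.22 with them.

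**Figure D4:**
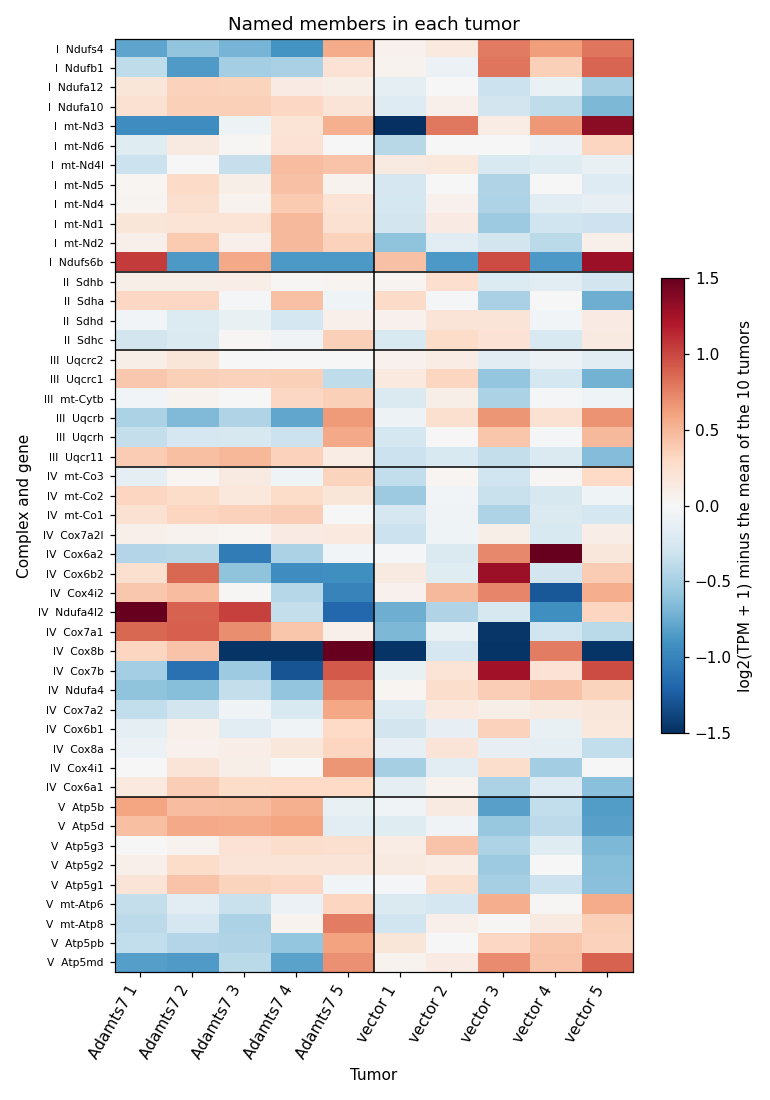
log2(TPM + 1) of the members named by rule in each tumor, minus the gene's mean over the 10 tumors, grouped by complex (left labels), with colors cut at -1.5 and 1.5. In Ndufs4, Uqcrb, Cox7b, Ndufa4, Atp5pb and Atp5md, Adamts7 tumors 1 to 4 are below the gene's mean and Adamts7 tumor 5 is above it.

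Leaving out Adamts7 tumor 5 changed the calls. In that fit 6 members, 5.5%, were higher, beside 1.12% of all tested genes, and 11, 10.1%, were lower, beside 3.17%. The 6 that rose were Uqcr11, Atp5d, Ndufs7, Cox7a1, Atp5b and Ndufa10, with log2 fold changes of 0.55 to 1.30 and limma adjusted p of 0.0208 to 0.0479. The 11 that fell were Ndufa4, Ndufs4, Atp5pb, Ndufc1, Atp5md, Uqcrb, Atp5mpl, Atp5j, Cox7b, Cox7c and Ndufb1, from -1.37 to -0.60, with limma adjusted p of 0.0172 to 0.0435. In all 17, Adamts7 tumors 1 to 4 did not overlap with the vector tumors. Adamts7 tumor 5 was above the other Adamts7 tumors in all 11 that fell and below them in all 6 that rose. The 17 were picked by the fit without that tumor, so both arrangements follow largely from the choice. How many of all tested genes share them was not counted. Ndufs7, Ndufc1, Atp5mpl, Atp5j and Cox7c were named for the calls of that fit after their values were seen.

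Giving tumors weights in limma, which lowers the part of tumors that fit poorly, called 11 members higher and 8 lower, beside 1.72% and 6.26% of all tested genes. Without vector tumors 3 and 5 as well as Adamts7 tumor 5, 5 members were higher and 10 lower, beside 1.29% and 3.95%.

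Transcript base composition ran along with these differences. Of the 96 nuclear members, 91 had a GC content from the older GENCODE M21 annotation. Across these 91 genes the log2 fold change had a Spearman correlation of 0.50 with GC content, and 0.22 across 12428 tested genes. With transcript length the correlation was 0.25 across the 91 and 0.04 across the 12428. After GC-bin centring these length values were 0.30 and 0.09. Genes in the same libraries are not independent, and no p is given. In the 23 members of lowest GC content, 42% to 48.7%, 3 were positive, with a median of -0.33, where other tested genes in the same range had -0.17. In the 23 members of highest GC content, 55.4% to 61.1%, 18 were positive, with a median of 0.23, beside 0.01 for other genes of that range. Of the members that fell without Adamts7 tumor 5, the 10 with a value had a GC content of 42% to 53.9%, and the 6 that rose had 51.6% to 61.1%. After the values of each tumor were centred within 10 GC bins, the correlation across the 91 members was 0.37. The mitochondrial genes, at 31.9% to 41.1% GC, had lower GC content than any nuclear member and a median of 0.27.

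**Figure D5:**
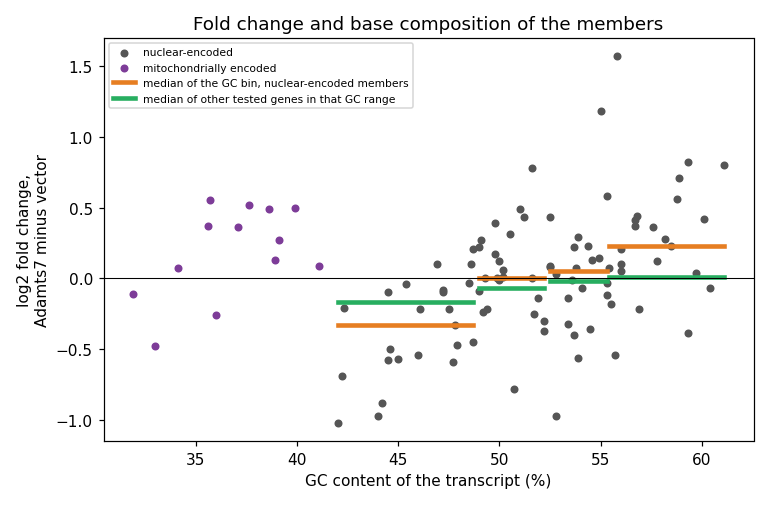
Log2 fold change of TPM + 1, Adamts7 minus vector, against the GC content of the transcript in percent for 91 nuclear (grey) and 13 mitochondrial (purple) genes. Orange bars are medians of the nuclear members in 4 bins of GC content, from -0.33 to 0.23, and green bars are medians of other tested genes in the same ranges, from -0.17 to 0.01.

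By tumor, the 23 members of lowest GC content deviated from their mean by a median of -0.37, -0.35, -0.18, -0.33 and 0.56 on the log2 scale in Adamts7 tumors 1 to 5. In vector tumors 1 to 5 the median deviations were -0.08, 0.12, 0.31, 0.21 and 0.33. Adamts7 tumor 5 was therefore the highest and the other Adamts7 tumors the lowest. For other tested genes of that GC range Adamts7 tumor 5 was at 0.05. The 23 members of highest GC content were at 0.07, 0.27, 0.08, 0.10 and 0.10 in Adamts7 tumors and between -0.33 and 0.01 in vector tumors.

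Genes that serve the same pathway were examined as lists, and with all tumors 0 members of any list were called by limma. The sign counts below stand beside 6073 positive values among all 15276 tested genes. The citric acid cycle and pyruvate dehydrogenase list was positive in 13 of 17 genes (median 0.16), with 4 genes (23.5%) higher and 1 (5.88%) lower at an unadjusted p under 0.05, beside 4.86% and 15.3% of all tested genes. Dld, the shared dehydrogenase component, was the lower one, at 52.4 ± 8.43 against 71.4 ± 5.8 TPM (SD, n = 5 each), with a log2 fold change of -0.45 (SE 0.12, limma adjusted p = 0.124). Idh3g, a regulatory subunit of isocitrate dehydrogenase, had 0.30 (SE 0.11). Carriers and outer membrane genes were positive in 11 of 16, with a median of 0.14. Among them Slc25a3, the phosphate carrier that feeds complex V, was at 1011 ± 104 against 714 ± 104 TPM (SD, n = 5 each), a log2 fold change of 0.51 (SE 0.13, limma adjusted p = 0.109).

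The 78 genes of the mitochondrial ribosome, which translates the 13 mitochondrial messages, had 30 positive values and a median of -0.12, near the -0.10 of all tested genes. At an unadjusted p under 0.05, 20 of them (25.6%) were lower and 1 (1.28%) higher, beside 15.3% and 4.86% of all tested genes. Mrps28, of the small subunit, was at 21.7 ± 3.4 against 35.1 ± 4.62 TPM, and Mrpl54, of the large subunit, at 108 ± 16.2 against 71.5 ± 7.93 TPM (SD, n = 5 each). Their log2 fold changes were -0.67 (SE 0.14, limma adjusted p = 0.0776) and 0.58 (SE 0.13, limma adjusted p = 0.0932). Assembly factors without Nduf names were positive in 14 of 44, with a median of -0.07, and 9 (20.5%) were lower at an unadjusted p under 0.05, beside 15.3% of all tested genes. Tmem126b and Coa6, which help assemble complexes I and IV, had -0.51 (SE 0.13) and -0.53 (SE 0.15).

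Genes of mitochondrial DNA maintenance and transcription had a median of -0.08, with 8 of 19 positive. Mtpap, the polymerase that adds poly(A) tails to mitochondrial messages, had 0.40 (SE 0.12, limma adjusted p = 0.13), and Slirp, which stabilizes those messages, -1.24 (SE 0.39, limma adjusted p = 0.147). The libraries were selected by poly(A) tail, so a difference in tail and one in message level cannot be told apart. Transcription factors of mitochondrial biogenesis were positive in 5 of 11, with a median of -0.01. Ppargc1a was at 24, 20.3, 11.9, 13.9 and 17.4 TPM in Adamts7 tumors and at 9.51, 19.4, 0.63, 6.82 and 1.66 TPM in vector tumors. The lowest values were those of vector tumors 3 and 5, the ones low in melanocyte markers, and the log2 fold change of 1.60 (SE 0.60) did not pass (limma adjusted p = 0.192). Epas1, a hypoxia-inducible factor, had -0.79 (SE 0.21, limma adjusted p = 0.113). Cytochrome c and coenzyme Q genes were positive in 10 of 15, with Coq8a at 0.87 (SE 0.28) and Coq10b at -0.75 (SE 0.25). The list for defence against reactive oxygen was positive in 4 of 8, with Gpx4 at 0.73 (SE 0.29) and Prdx5 at -0.33 (SE 0.16).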

How the data were processed

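RNA was selected by poly(A) tail, given spike-in RNA and molecular identifiers and sequenced as paired 150-base reads, demultiplexed with bcl2fastq 2.17 per the labels' protocols. The submitters' processing notes name RSEM, DESeq2 and mm39; for versions and annotation, nothing is given in the sources used here. The expression table deposited by the authors holds log2(TPM + 1) values, whose TPM sum to 995286 to 998019 per tumor. TPM keeps no depth, and RSEM divides reads of similar genes by estimate. The authors' deposited comparison table holds, per gene, the mean signal after normalization, the log2 fold change and its error, a score and p-values, with 108 members matched by identifier through GENCODE M21 and RefSeq names.

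The fit used limma 3.58.1 (R 4.3.3) with trended variance and no term but group, on log2(TPM + 1) of 15276 genes whose mean reached 1 TPM (pseudocount 1), adjusted by Benjamini-Hochberg at 0.05. The test was tested on simulated data. GC content and length come from GENCODE M21 for 104 members and 81.4% of tested genes. Members, lists, named-gene rule and alternatives were chosen with earlier results of these data known. The rule named all mitochondrial genes, up to 4 nuclear genes of smallest p and the highest and lowest by TPM per complex, up to 10 without overlap, the isoform pairs, and 2 genes per list. Roles were assigned from textbook knowledge. The same-numbered tumors did not deviate together. The deposited antigen receptor table was not used.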

Additional observations from a re-analysis of the deposited data

Results flagged for a closer look

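In groups of 5 tumors, a value was looked at again when the gap between 1 extreme tumor and its nearest neighbour took more than 0.71 of the whole range (Dixon's 95% value). Chance alone gives about 1 in 20 groups if they are independent. The members examined were named partly by these same values, and the rate over all tested genes was not counted. The count therefore cannot be read as particular to these genes. Of 96 groups tested, 2 for each of the 48 named members, 15 met it, and 13 of these were the tumor labelled Adamts7 5, whose Adamts7 level was 18.2 TPM.

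In that tumor 10 genes were far above Adamts7 tumors 1 to 4. They were Cox8b at 191 TPM, Ndufa4 at 857 TPM, Ndufs4 at 47.7 TPM, Uqcrb at 530 TPM, Uqcrh at 609 TPM, Atp5pb at 247 TPM, Atp5md at 1067 TPM, Cox7b at 101 TPM, Cox7a2 at 429 TPM and Cox4i1 at 1364 TPM. The nearest other Adamts7 tumor was at 2.75 TPM for Cox8b and at 402 TPM for Ndufa4. The other 3 were far below their group: Atp5b at 1622 TPM, Atp5d at 350 TPM and Uqcrc1 at 135 TPM. Genes vary together within a tumor, so these are not separate events.

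The remaining 2 were in other tumors. mt-Nd1 was high in Adamts7 tumor 4, at 9756 TPM with the next at 8171 TPM, and Cox7a2 was low in vector tumor 1, at 251 TPM with the next at 305 TPM.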

How the results depend on the processing

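With all tumors, 0 members were called in either direction, beside 0.0262% of all tested genes higher and 0.196% lower. The number called higher was 1 with pseudocounts of 0.1 and 0.5 TPM, with median-of-ratios scaling, with quantile normalization, with TPM rescaled without mitochondrial genes and with length-bin centring, and 2 with GC-bin centring. Of all 15276 tested genes, 5 were higher with each pseudocount, 8 with median-of-ratios scaling and 10 with quantile normalization. With rescaled TPM 5 were higher, with length-bin centring 7 and with GC-bin centring 20. On the lower side 20 to 32 of all tested genes were called in these fits, and 0 members. Tumor weights gave 11 higher and 8 lower, beside 1.72% and 6.26% of all tested genes. Without vector tumors 3 and 5 and Adamts7 tumor 5, 5 were higher and 10 lower, beside 1.29% and 3.95%. Leaving out 1 tumor gave 0 to 6 higher and 0 to 11 lower, and every count above 0 came from leaving out Adamts7 tumor 5. In that fit 1.12% of all tested genes were higher and 3.17% lower. Of 5 same-numbered pairs of tumors, 1 correlated above 0.1 (range -0.278 to 0.262), and 1 Adamts7 tumor correlated best with its own number. With 5 pairs these values cannot show whether tumors were paired in the experiment, which the labels do not state. With a replicate block, 0 members were called higher and 0 lower, as were 0 of all tested genes. The medians were then 0.01 for all members, 0.27 for mitochondrial and 0.00 for nuclear genes. Leaving out 1 tumor moved these medians between -0.03 and 0.06, 0.19 and 0.33, and -0.05 and 0.03. Median-of-ratios scaling, which moved the median of all tested genes by 0.11, gave 0.13 for all members and 0.12 for nuclear genes. GC-bin centring, which subtracts each tumor's median deviation over the genes of a GC bin, gave 0.54 for mitochondrial genes. Other causes were not tested. Over 48 named members and 24 alternatives, 1076 of 1152 values kept their direction and side of the threshold, 47 passed where the first fit did not, and 29 changed sign. With tumor weights these were Cox4i2 at 0.25, Cox8b at -0.16, Ndufs6b at 0.30 and mt-Nd4l at -0.05. Without vector tumors 3 and 5 they were Cox4i2 at 0.14, Ndufs6b at 0.24, Sdhc at 0.03 and mt-Atp6 at 0.02. Without these and Adamts7 tumor 5 they were Cox4i2 at 0.36, Cox8b at -0.23, Ndufs6b at 0.40, mt-Nd4l at -0.08 and Cox6b2 at 0.00. Quantile normalization gave 0.03 for Cox4i2 and -0.03 for mt-Co3, median-of-ratios scaling 0.05 for Sdhc and 0.01 for mt-Atp8, GC-bin centring 0.01 for mt-Atp6 and 0.15 for mt-Atp8, and length-bin centring 0.03 for Sdhc. Leaving out 1 tumor moved Cox4i2 between -0.56 and 0.01, positive only without Adamts7 tumor 5, and mt-Nd4l between -0.01 and 0.19, with -0.00 without Adamts7 tumor 5 and -0.01 without Adamts7 tumor 4. It moved mt-Nd6 between -0.02 and 0.16, negative only without vector tumor 1, and Cox6b1, at 0.00 with all tumors, between -0.07 and 0.09, negative in 5 of these fits. The cause of these changes was not tested. Cox6c2 has no value under the filter of at least 1 TPM in at least 5 tumors. GC-bin and length-bin centring were chosen after seeing the data. Mean normalized counts in the authors' deposited table ran from 0.205 for Cox6c2 and 0.802 for Ndufs6b to 207804 for mt-Co1. The depth of single tumors is unknown, so precision from counting in a tumor cannot be given.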
